A study of Clio pyramidata with 8 samples.

Results

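The steadiest expressed transcripts of the pteropod Clio pyramidata are described here: 200 transcripts, of 27393 listed, whose levels varied least among 8 animals. They were chosen by their measured values. Levels are in FPKM, which divides the fragments of a transcript by its length and by the library's mapped total, with TMM factors applied by the authors. Of the 5211 transcripts averaging 10 FPKM or more over the 8 animals, the 100 with the largest minimum were left out. Of the 5111 candidates that remained, the 200 with the smallest SD (standard deviation) of log2(FPKM + 1) over all 8 animals became the members. The identifiers carry no gene names in the files used here, so the members are given by identifier.

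Clio pyramidata is a thecosome pteropod, a shelled sea snail that swims in open water and builds its shell of calcium carbonate. The tested animals were 4 adults (A to D) held for 9 to 11 h in filtered seawater that had been bubbled with a gas mixture of 800 ppm CO2. Their controls were 4 adults (E to H) held for the same time in water bubbled with ambient air, about 380 ppm CO2. All 8 were wild-caught, were acclimated first, sat alone in water with streptomycin and ampicillin, and were taken out of their shells, so each library holds the RNA of 1 whole body. A whole body mixes many tissues, and fewer cells of a type and less RNA per cell cannot be told apart in it.

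Cells keep some genes running at nearly the same rate in most tissues and states, among them genes for protein synthesis, the cytoskeleton and basic metabolism. Such genes are used as internal references, because a level that hardly moves between samples can serve as a yardstick for the rest. TMM, the scaling behind the deposited values, rests on a related premise: it sets library factors from a trimmed set of transcripts, on the assumption that most do not change. Whether a given transcript belongs to these classes cannot be read from the identifiers.

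The libraries were unequal in how many transcripts they detected. Zeros made up 27.8% of listed transcripts in D at 800 ppm and 22.0% in E at 380 ppm, against 2.57% to 9.15% in the other 6 libraries. The table gives no read totals, and the number of fragments behind a member's value depends on its length, which is unknown, so counting error could not be set apart from other variation. Several results that rest on D or E are given with and without them.

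The members were moderately expressed and were detected in every animal. Their mean levels ran from 10.02 to 269.96 FPKM with a median of 18.5 FPKM, against a median of 22.0 FPKM for all candidates. The lowest value of any member in any library was 5.62 FPKM, so none was at 0. Of the other 4911 candidates, 296 were listed at 0 in at least 1 library. The rule's limits on mean and SD left no room for a 0 in a member, so nothing is read from this contrast. The SD that chose the members ran from 0.146 to 0.402 with a median of 0.346, and the median over all candidates was 1.09. Between the highest and the lowest animal, a member's FPKM differed by a median of 2.09-fold, from 1.31-fold to 2.83-fold. For 121 of the 200 this range was over 2-fold.

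The members lay in the lower part of the candidates' range, which reached a mean of 10183 FPKM. They made up 4.74% of the 1476 candidates with a mean between 10 and 15 FPKM (70 members), 4.48% of the 1719 between 15 and 30 FPKM (77 members) and 2.77% of the 1916 at 30 FPKM or more (53 members). Of the 100 abundant transcripts left out by the rule, 4 had an SD within the members' limit, and their median SD was 0.939.

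The 3 steadiest members held their level in all 8 animals. GAWL01033441, with the smallest SD of 0.146, had 11.6, 9.54, 11.2 and 11.2 FPKM in the 800 ppm animals A, B, C and D, against 13.7, 13.0, 11.2 and 12.1 FPKM in the 380 ppm animals E, F, G and H. The groups overlapped in A, C and G, with B lowest and E highest. GAWL01036858 combined a small SD, 0.149, with a high level of 83.5, 91.1, 104.7 and 103.6 FPKM in the 800 ppm animals A, B, C and D, against 94.1, 104.2, 109.2 and 84.0 FPKM in the 380 ppm animals E, F, G and H. Its lowest and highest animals, A and G, differed 1.31-fold, the smallest range among the members. GAWL01024583 had 19.5, 23.8, 21.1 and 21.2 FPKM in the 800 ppm animals A, B, C and D, against 23.3, 28.2, 23.2 and 23.7 FPKM in the 380 ppm animals E, F, G and H. Apart from F, its values at 380 ppm lay within 23.2 and 23.7 FPKM.

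The next 7 in the order of SD had values between 9.41 and 45.9 FPKM. GAWL01024662 averaged 13.57 ± 1.999 FPKM at 800 ppm and 11.98 ± 0.835 FPKM at 380 ppm (SD, n = 4 each). GAWL01022814 averaged 38.7 ± 6.61 FPKM at 800 ppm and 34.8 ± 1.33 FPKM at 380 ppm (SD, n = 4 each), its values in A and C lying above those of the other 6 animals. GAWL01027583 averaged 10.9 ± 1.71 FPKM at 800 ppm and 12.2 ± 1.37 FPKM at 380 ppm (SD, n = 4 each). The other 4 (GAWL01027366, GAWL01019244, GAWL01032044 and GAWL01030497) had CO2 differences between -0.091 and -0.030 on the scale of log2(FPKM + 1), smaller than their SDs of 0.190 to 0.231. In all 10 the groups overlapped.

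**Figure D1:**
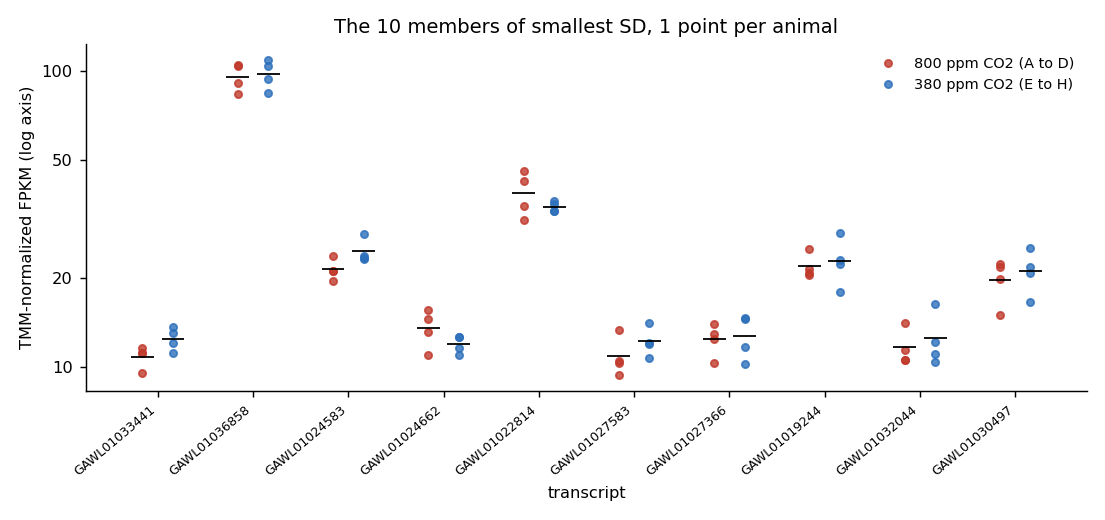
TMM-normalized FPKM (log axis) of the 10 members of smallest SD, with 1 point per animal, the 800 ppm animals left of the 380 ppm animals for each transcript, and a bar at each group's mean. The groups overlap for every one of the 10, and the most abundant, GAWL01036858, stands between 83.5 and 109.2 FPKM.

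At the other ends of the list the values were wider. The most abundant member, GAWL01005549, had 187.4, 203.9, 302.1 and 273.4 FPKM in the 800 ppm animals A, B, C and D, against 307.8, 341.3, 228.7 and 314.9 FPKM in the 380 ppm animals E, F, G and H. C and D lay among the 380 ppm animals and G among the 800 ppm animals. GAWL01018338, the next in level, ranged from 126.8 to 234.9 FPKM at 800 ppm and from 167.6 to 272.2 FPKM at 380 ppm. The lowest mean levels were those of GAWL01019740 (10.02 FPKM) and GAWL01009186 (10.14 FPKM).

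The limit between members and the rest falls in a continuous range. Just inside it, GAWL01021933, GAWL01023880 and GAWL01017459 had SDs of 0.401, 0.401 and 0.402. Just outside, GAWL01022503, GAWL01020387 and GAWL01029672 had SDs of 0.403, 0.404 and 0.404. GAWL01017459 stood between 11.9 and 24.6 FPKM at 800 ppm and between 13.3 and 25.9 FPKM at 380 ppm, while GAWL01022503 stood between 9.70 and 22.4 FPKM at 800 ppm and between 8.76 and 16.2 FPKM at 380 ppm. Membership also depended on single animals: 82 members were chosen again whichever of the 8 animals was left out, and the set chosen without E shared 118 of its 200 transcripts with the members. Without D it shared 132, and without both D and E 87.

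The members' highest and lowest values were spread unevenly over the animals. The highest value lay in F for 55 members and in E for 54, and in B for only 4. The lowest value lay in D for 46 members, in A for 31 and in B for 31, and in C for only 5. Relative to each transcript's mean, the median member was 15.8% higher in F, 7.42% higher in C and 7.28% higher in E, and 12.7% lower in B and 7.56% lower in D, on the scale of FPKM + 1. A first component over the members' deviations carried 26.8% of their variance, with F (0.621) and E (0.424) at one end and B (-0.465) and A (-0.372) at the other. D had almost no part in it (0.00684) and led the third component (0.768, 18.0% of the variance).

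How far CO2 could move a member was bounded by the rule itself. For 4 animals against 4, the difference between group means cannot exceed 1.87 times the SD over the 8 animals. The members' differences could therefore not exceed 0.75 on the scale of log2(FPKM + 1), a 1.69-fold change of FPKM + 1, and the bound was as low as 0.27 (1.21-fold) for GAWL01033441. These bounds describe the 8 animals measured and are fixed by the choice of members.

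Within that range, the observed differences were small. The median absolute difference was 0.18 (1.14-fold), 9 in 10 were under 0.393, and the largest was 0.55 (1.46-fold). The median signed difference, 800 minus 380 ppm, was -0.14, with quartiles at -0.30 and 0.0086. Values were lower at 800 ppm in 146 members (73.0%), against 57.8% of the candidates, and higher in 54. The median over all 19379 tested transcripts (those averaging 1 FPKM or more) was -0.10. The direction depended on the scaling. The members' median difference was -0.16 with summed FPKM (158 members lower at 800 ppm), -0.061 with quantile normalization (122 lower) and -0.043 with median-of-ratios factors (108 lower). It turned to 0.22 with factors from transcripts chosen without each library (25 lower) and to 0.0041 with upper quartile scaling (100 lower). The factors behind the 0.22 were taken against the other 7 libraries. For a fixed set of transcripts, this makes each library's distance 8/7 of that from the mean of all 8. Scaled by the members' own median or mean it was -0.012 or -0.021, values that centring on the members brings near 0.

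The groups did not overlap in 4 members (2%), all 4 lower at 800 ppm, where 2.61% of the tested transcripts were non-overlapping and lower and 3.6% were non-overlapping in either direction. Since the rule used the same values, nothing is read from this count. GAWL01019164, with the largest difference of -0.55, had 25.8, 21.7, 27.3 and 26.1 FPKM in the 800 ppm animals A, B, C and D, against 37.9, 44.1, 37.3 and 30.8 FPKM in the 380 ppm animals E, F, G and H. The other 3, named after their values were seen, were GAWL01036701 (9.54 ± 1.34 FPKM at 800 ppm and 13.9 ± 1.97 FPKM at 380 ppm), GAWL01030179 (105.4 ± 13.3 FPKM at 800 ppm and 147.3 ± 28.9 FPKM at 380 ppm) and GAWL01012816 (9.31 ± 1.16 FPKM at 800 ppm and 13.1 ± 4.32 FPKM at 380 ppm), each as mean and SD with n = 4 per group. Scaled by the members, the non-overlapping members numbered 2 higher and 3 lower at 800 ppm, and under the other 6 scalings tried 0 to 7 higher and 0 to 3 lower.

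The members with the largest differences in each direction had values that overlapped, except for GAWL01019164. GAWL01038815, the most positive at 0.44, had 120.4, 108.3, 92.7 and 86.9 FPKM in the 800 ppm animals A, B, C and D, against 81.6, 57.8, 66.8 and 95.9 FPKM in the 380 ppm animals E, F, G and H. Only H reached into the range of the 800 ppm animals. GAWL01034313 averaged 34.4 ± 3.14 FPKM at 800 ppm and 26.7 ± 7.73 FPKM at 380 ppm (SD, n = 4 each), with G and H below the other 6 animals. GAWL01022473 ranged from 14.1 to 22.2 FPKM at 800 ppm and from 8.76 to 18.4 FPKM at 380 ppm. On the negative side, GAWL01024643 averaged 8.85 ± 1.69 FPKM at 800 ppm and 13.3 ± 2.64 FPKM at 380 ppm (SD, n = 4 each), and GAWL01020767 averaged 49.2 ± 8.18 FPKM at 800 ppm and 72.3 ± 18.1 FPKM at 380 ppm (SD, n = 4 each). The sign of each of these 6 differences was the same under the 7 other scalings. They were picked as the largest, and a scaling moves most transcripts by a similar amount, so nothing is read from the kept sign.

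**Figure D2:**
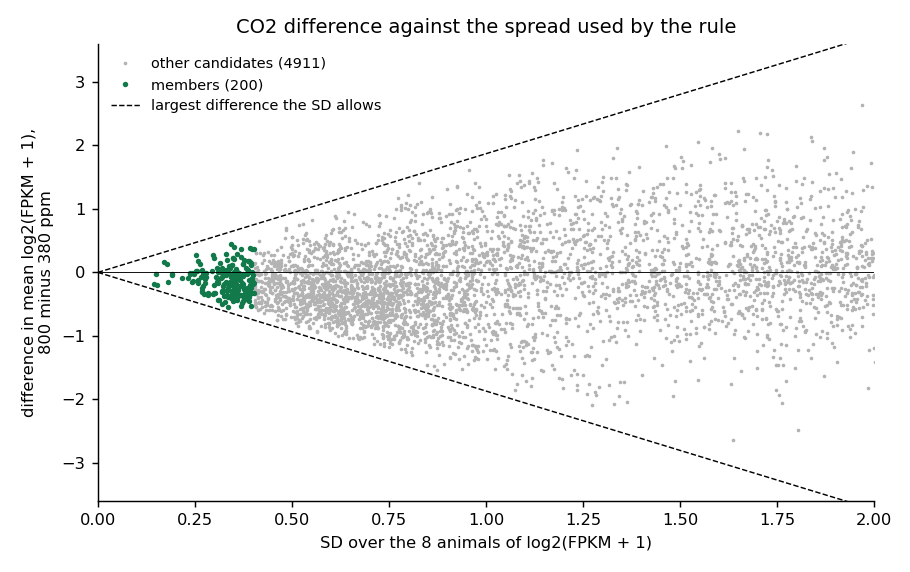
Difference in mean log2(FPKM + 1), 800 minus 380 ppm, against the SD over the 8 animals that the rule used, for the 200 members and the other 4911 candidates, of which 980 with an SD over 2 lie beyond the axis. Dashed lines mark the largest difference each SD allows. The members lie between -0.55 and 0.44.

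The interval that the fit across all transcripts gave for a member was much wider than these values. With limma, which draws each transcript's variance towards that of others of similar level, the 95% interval of a member's CO2 difference reached a median of 1.05 to each side, a factor of 2.07 in FPKM + 1. The median was 1.26 over all tested transcripts, which include lower levels, and 1.65 over the candidates. The interval lay within a 2-fold change either way for 5 of the 200 members (2.50%), beside 2.12% of the tested transcripts. Of all 5111 candidates these 5 were the only ones (0.0978%), and the rule had chosen the members for a small SD. Over all members the intervals spanned -1.67 to 1.61, so the fit allowed changes of up to 3.19-fold lower and 3.05-fold higher. An interval from each transcript's own spread, added after seeing the data, reached a median of 0.59 to each side and lay within 2-fold for 192 members (96.0%), but the rule selected that spread to be small. No transcript of the table passed limma's test (0 of 19379, 0.0%, smallest Benjamini-Hochberg adjusted p 0.997, with 845 at an unadjusted p under 0.05).

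A bound that the choice sets less directly comes from animals that had no part in it. For each animal in turn, 200 transcripts were chosen by the same rule from the other 7. The left-out animal was then compared with the mean of those 7. Because those 7 came from both groups, transcripts that differed by CO2 among them tended to be passed over. The choice could therefore still limit the CO2 difference seen in the left-out animals. The chosen transcripts deviated less than the candidates in all 8 left-out animals. Their median absolute deviation was 0.417 ± 0.169, against 0.854 ± 0.256 for all candidates (SD, n = 8 animals; exact sign-flip permutation test over animals, two-sided, p = 0.00781, the smallest this test can give, chosen after the values were seen). Each of the 8 sets shared 118 to 176 transcripts with the members, and each animal helped to choose 7 of the 8 sets, so these 8 comparisons were not independent. A small spread in 7 animals also makes a small deviation in the remaining animal likely. Nothing is therefore read from this p. Of the chosen transcripts, 95%, 97.5%, 98.5% and 76.5% lay within 2-fold of the other animals in A, B, C and D at 800 ppm, and 67.5%, 87.5%, 92.0% and 98.0% in E, F, G and H at 380 ppm. For all candidates this share ran from 43.2% in D to 74.1% in C. D and E, the libraries with most zeros, had the lowest shares among the chosen transcripts; the part of depth in this was not tested.

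The same left-out animals gave the offset of each library, the median deviation over the 200 transcripts. Its values were -0.16, -0.32, 0.16 and -0.48 in the 800 ppm animals A, B, C and D, and 0.47, 0.37, -0.087 and -0.023 in the 380 ppm animals E, F, G and H. D was lowest and E highest, and C lay within the range of the 380 ppm animals. The mean offset was -0.20 ± 0.27 at 800 ppm and 0.18 ± 0.28 at 380 ppm (SD, n = 4 each). The difference of -0.38 between mean offsets did not pass a two-sided exact permutation test (p = 0.114, the smallest possible being 0.0286). Inverting that test gave a 97.1% interval of -0.94 to 0.25 for the difference in offset. Each offset is taken against the other 7 animals. For a fixed set of transcripts it is larger in size than the deviation from the mean of all 8. The sets here differed between animals, and transcripts that differed by CO2 among the other 7 tended to be passed over. Whether the difference in offset and its interval overstate or understate the difference between group means is therefore not known. Without D the difference was -0.16 (p = 0.229) and without E -0.16 (p = 0.571), by an exact permutation test that doubles the smaller tail for unequal groups. Without both it turned to 0.036 (p = 0.8, by the exact permutation test for equal groups). After these omissions the tests as run could not give a p under 0.05. Over all candidates the offsets averaged -0.12 ± 0.38 at 800 ppm and -0.11 ± 0.30 at 380 ppm (SD, n = 4 each; exact permutation p = 1.0).

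**Figure D3:**
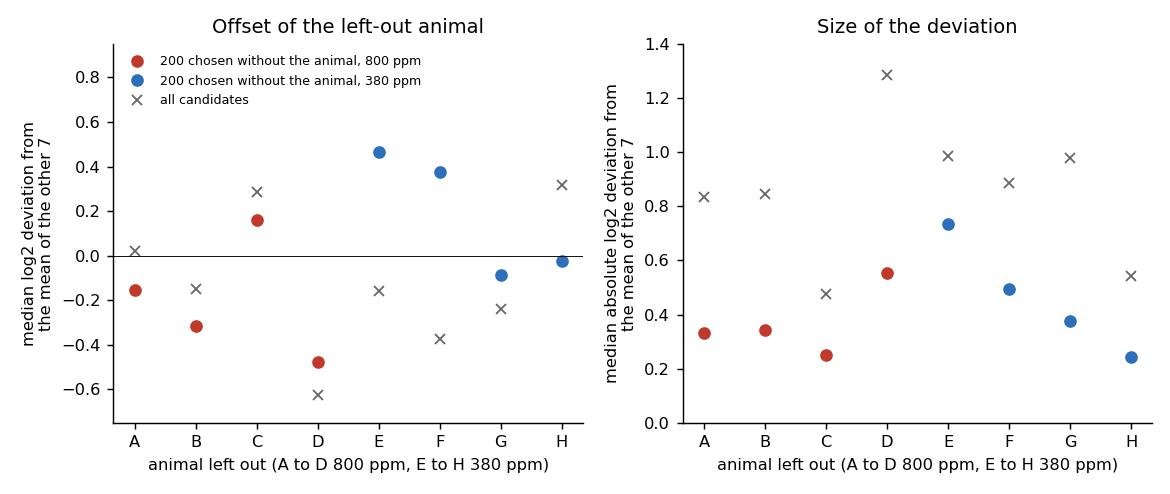
Each animal compared with the mean of the other 7 on the scale of log2(FPKM + 1), over the 200 transcripts chosen without it (circles) and over all candidates (crosses): the median deviation on the left and the median absolute deviation on the right, with the 800 ppm animals left of the 380 ppm animals. The circles lie below the crosses in all 8 animals on the right, and the offsets run from -0.48 in D to 0.47 in E on the left.

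Transcripts chosen in 1 group alone gave a second view of the CO2 difference. The 200 steadiest among the 800 ppm animals differed by a median of -0.28, 800 minus 380 ppm, with quartiles at -0.50 and -0.031. E and F stood 0.57 and 0.47 above the 800 ppm mean, while G (-0.0026) and H (-0.026) did not. The 200 steadiest among the 380 ppm animals differed by a median of -0.29, with quartiles at -0.52 and -0.030. A, B and D stood at -0.33, -0.41 and -0.32 relative to the 380 ppm mean, and C at -0.016. The difference lay within 2-fold for 190 of the set chosen at 800 ppm (95%) and for 183 of that chosen at 380 ppm (91.5%), against 83.9% of all candidates, whose median difference was -0.12. Both medians depended on single animals. Without both D and E they were 0.12 for the set chosen at 800 ppm and -0.019 for the set chosen at 380 ppm. Without D alone they were 0.096 and -0.24, without E alone -0.15 and -0.084, and without B alone -0.066 and -0.23.

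Steadiness in one group went only partly with steadiness in the other. Of the 200 steadiest at 800 ppm and the 200 steadiest at 380 ppm, 19 were the same (9.50% of each list), where 200 make up 3.91% of the candidates. The members included 17 of these 19, among them 8 of the 10 with the smallest SD. The other 2, GAWL01012467 and GAWL01031435, named after their values were seen, were steady within each group but had non-overlapping groups, with differences of -0.74 and -0.76. Across the 5111 candidates the SDs within the 2 groups had a Spearman rho of 0.578, a description across transcripts that share the same libraries. The members' SD within groups had a median of 0.295 at 800 ppm and 0.343 at 380 ppm, with the larger spread at 380 ppm in 120 of the 200. Over all candidates these medians were 0.940 at 800 ppm and 1.06 at 380 ppm, with the larger spread at 380 ppm in 2558 of the 5111.

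Beyond the limit, lower values at 800 ppm were as common with the deposited scaling. The 300 candidates next in order of SD had a median difference of -0.20, with 71.3% lower at 800 ppm. The 500 after them stood at -0.32 (75.6% lower) and the 1000 after those at -0.34 (74.0% lower). Among the remaining 3111 the median was 0.041, with 47.5% lower. Without D and E the medians were -0.10 for the members, -0.15, -0.23 and -0.24 for the next 3 sets, and 0.67 for the remaining 3111. The shares lower at 800 ppm were then 63.5%, 66.0%, 67.6%, 65.8% and 26.6% in the same order.

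Used as a yardstick, the members gave library factors close to the deposited scaling. Relative to TMM, the log2 factors from the members' median were -0.059, -0.20, 0.10 and -0.11 in the 800 ppm animals A, B, C and D, and 0.10, 0.21, -0.046 and -0.0024 in the 380 ppm animals E, F, G and H. Their range, 1.33-fold, was kept small by the rule, since transcripts that moved with a library's factor had a larger SD and were passed over. Factors taken from transcripts chosen without the library had a range of 1.92-fold. These were set against the other 7 libraries and the members' factors against all 8, so the 2 ranges are not on the same scale. For a fixed set of transcripts, the former overstate each library's distance from the mean of all 8 by a factor of 8/7. Median-of-ratios factors over all transcripts detected in every library spanned 1.27-fold, upper quartile factors 1.61-fold and summed FPKM 4.89-fold. The members together summed to between 5877 and 7106 FPKM at 800 ppm and between 6577 and 7359 FPKM at 380 ppm. As a share of all FPKM they ranged from 0.379% to 0.888% at 800 ppm and from 0.327% to 1.46% at 380 ppm, lowest in E and D.

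**Figure D4:**
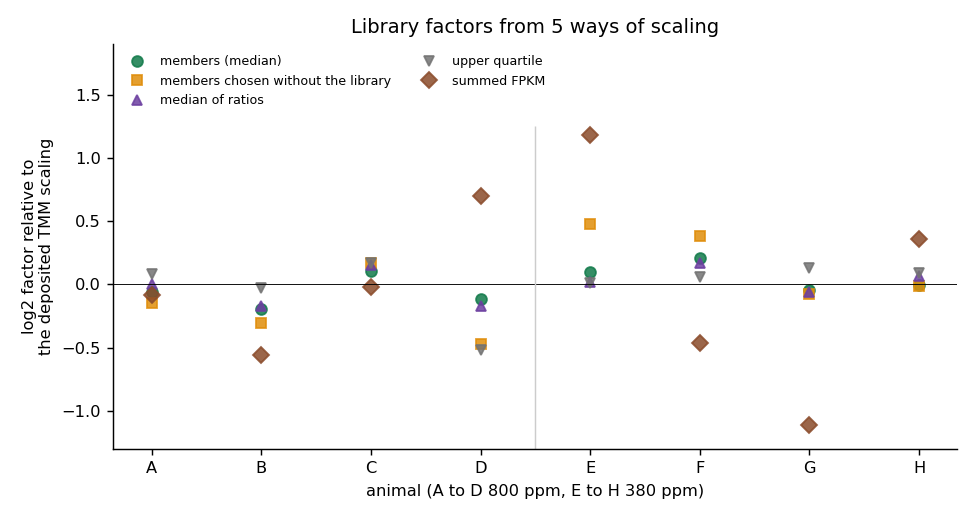
Log2 factor of each library relative to the deposited TMM scaling from 5 ways of scaling, with the 800 ppm animals left of the 380 ppm animals. Factors from the members stay between -0.20 and 0.21, those from transcripts chosen without the library between -0.47 and 0.47, and those from summed FPKM between -1.11 and 1.18.

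Scaling by the members did not make the rest of the table much steadier. Over the 19179 tested transcripts that were no members, the median SD of log2(FPKM + 1) among the 8 animals was 0.808 after scaling by the members and 0.815 as deposited, a change of -0.0069. The SD became smaller for 51.7% of these transcripts and larger for the others. Within groups, the median SD was 0.682 after scaling by the members and 0.675 as deposited at 800 ppm, and 0.821 after scaling by the members and 0.834 as deposited at 380 ppm. With factors from transcripts chosen without the library the median SD was 0.819, above the deposited 0.815, and only 43.1% of transcripts became steadier. For a fixed set of transcripts, those factors overstate each library's distance from the common mean by a factor of 8/7. Smaller ones were not tried. Median-of-ratios scaling gave 0.813, quantile normalization 0.822, upper quartile scaling 0.828 and scaling to summed FPKM 0.955. These changes were not tested.

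The scaling left the number of calls at 0 and changed the balance of low p-values. After scaling by the members, limma called 0 of 19379 transcripts at a Benjamini-Hochberg adjusted p of 0.05, with 866 at an unadjusted p under 0.05. Of these 450 were higher and 416 lower at 800 ppm, against 328 higher and 517 lower with the deposited values, so the share with higher values was 52.0% after scaling by the members and 38.8% as deposited. Factors from transcripts chosen without the library gave 725 higher and 211 lower (77.5% higher). For a fixed set of transcripts, these factors are too large by a factor of 8/7. Quantile normalization gave 297 higher and 483 lower. The median difference over all tested transcripts was -0.010 after scaling by the members, 0.15 with factors from transcripts chosen without the library and -0.10 as deposited.

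**Figure D5:**
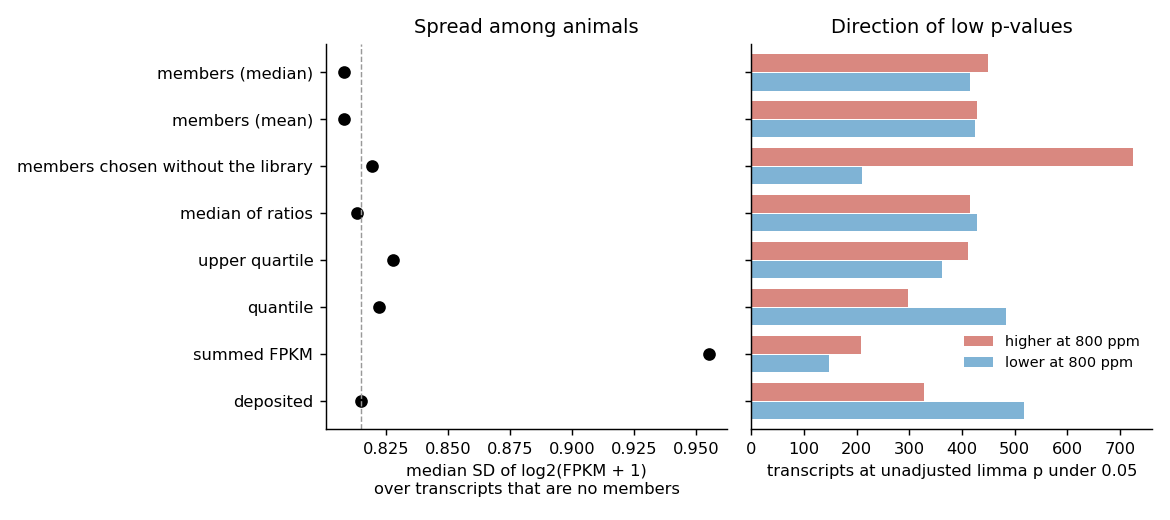
On the left, the median SD of log2(FPKM + 1) among the 8 animals over the 19179 transcripts that are no members, under each scaling, with a dashed line at the deposited value of 0.815. On the right, the transcripts at an unadjusted limma p under 0.05 that were higher or lower at 800 ppm, which number 450 higher and 416 lower after scaling by the members, against 328 higher and 517 lower as deposited.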

How the data were processed

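Messenger RNA of 8 whole animals was sequenced, 4 at 800 ppm and 4 at 380 ppm CO2, grouped by their titles. Per the labels, RNA was extracted with 1 of a pair of reagents, with no record of which animal had which, so extraction was not tested. The authors deposited 1 table of TMM-normalized FPKM, rounded to 2 decimals. Trimmomatic, Bowtie and edgeR appear in the submitters' processing notes; versions, quantifier and assembly: not given in the sources used here. All 8 columns matched 1 sample each. Letters pair nothing.

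FPKM are not counts, so limma 3.58.1 (R 4.3.3) was fitted with an intensity trend to log2(FPKM + 1) of the 19379 transcripts averaging 1 FPKM or more, with Benjamini-Hochberg adjustment at 0.05. Fold changes on this scale understate those of low transcripts. Single values were compared by exact permutation tests. Steps were tested on simulated data. Python 3.11.15, numpy 2.4.6, pandas 2.3.3 and scipy 1.17.1 were used. Absolute depth is unknown. Transcripts to name were the 10 of smallest SD, extremes of level and difference, and those beside the limit. Pseudocounts, level limits, set sizes, spread measures, scalings and left-out animals were varied. The members, lists and tests were chosen with earlier results of these data known.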

Additional observations from a re-analysis of the deposited data

Results flagged for a closer look

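A sample far from the other 3 of its group was looked for in 68 groups of 4, taking the library measures and the named transcripts, by the gap to the nearest other animal as a share of the group's range. Chance flags about 1 in 20 groups, and 2 were found. Among the 800 ppm animals, D had 76.5% of the transcripts chosen without it within 2-fold of the other animals, against 95% to 98.5% in A, B and C, a gap of 0.841 of the range. Among the 380 ppm animals, GAWL01024583, the third steadiest member, was high in F at 28.2 FPKM, against 23.2 to 23.7 FPKM in E, G and H, a gap of 0.878 of the range.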

How the results depend on the processing

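The members' CO2 difference was -0.14. For 200 transcripts chosen anew it was -0.27 with a minimum mean of 50 FPKM (38 shared with the members). Chosen anew without D and E, it was -0.032 (87 shared), while the members themselves stood at -0.10 without D and E. For sets chosen anew without single animals the range was -0.17 to -0.036. Under other scalings the members' difference was 0.22 with factors from transcripts chosen without the library, 0.0041 with the upper quartile and -0.012 with the members' own factors. It stayed below 0 with the members' mean, median of ratios, quantiles and summed FPKM. The offset of left-out libraries (-0.38) had an exact permutation p of 0.114 to 0.143 in the alternatives with all 8 animals. It turned to 0.036 with D and E both omitted. For single omitted animals its range was -0.51 to -0.16, where the test, with its smaller tail doubled, cannot give a p under 0.0571. For transcripts chosen at 800 ppm (-0.28) the difference was 0.12 with both omitted, with a range of -0.40 to 0.096 for single animals; for those chosen at 380 ppm (-0.29) it was -0.019, with a range of -0.38 to -0.084. The share of transcripts steadiest in both groups (9.50%) was 4.0% with a minimum mean of 5 FPKM, 49.5% with 50 FPKM, where candidates are few, 5.0% with lists of 100 and 26.6% with lists of 500. A list's share of the candidates, 3.91% in the main setting, changes with list length and level limit. These shares are therefore not comparable with one another. With 1 animal left out the share ranged from 5.0% (without G) to 14.5% (without E), and without D and E it was 6.5%. The change in the other transcripts' median SD (-0.0069) was 0.0042 with factors from transcripts chosen without the library, 0.0129 for the upper quartile, 0.0071 for quantiles and 0.140 for summed FPKM. Scaled by the members' rule without D and E, the change was -0.0045. With factors from transcripts chosen without the library (0.0042) it was -0.0013 without D and E. With 1 animal left out it ranged, for those factors, from -0.0087 (without D) to 0.0121. The cause was not tested. Calls at an adjusted limma p of 0.05 numbered 0 in all 20 alternatives, and counts at an unadjusted p under 0.05 (866) ranged from 120 with fewer transcripts tested to 1736 without D and E; they were 476 without A, 1697 without E, 514 without F, 524 without G and 356 for summed FPKM. Summed FPKM, other scalings for the members' own difference and the intervals from each transcript's own spread were added after seeing the data, as were factors from transcripts chosen without the library under these settings and single animals left out of the choice in 1 group. Without read totals, counting error in D and E could not be given. No paired analysis was possible because the letters name separate animals.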
